A study of Homo sapiens with 4 samples.

Results

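Adhesion receptors were followed in a leukemic cell line before and after it had become resistant to arsenic trioxide (ATO). The members were chosen by gene name: integrin alpha and beta chains, cadherins, the intercellular adhesion molecules ICAM1 to ICAM5, VCAM1, PECAM1, the junctional molecules F11R, JAM2 and JAM3, the selectins and SELPLG. The name rule took 102 of the 41000 probes of the array, for 69 genes. It also caught 5 genes named after integrins that are not integrin chains, namely ITGB1BP1, ITGB1BP2, ITGB1BP3, ITGB3BP and ITGBL1. NB4 is an established human line of acute promyelocytic leukemia (APL) that carries the PML-RARA fusion. The naive group was NB4, and the resistant group was a line derived from it in-house, named NB4-VM-AsR1 in the labels and NB4-EV-AsR1 in the methods. Both lines grew in RPMI with FBS, and the resistant cells were kept without ATO for 1 week before RNA was taken from 2 independent flasks of each line. All resistant flasks came from 1 resistant line, so resistance and other properties of that line cannot be told apart, and the p-values measure the spread between flasks only.

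Integrins are surface receptors made of an alpha and a beta chain. They bind matrix proteins such as fibronectin and laminin, or counter-receptors of the immunoglobulin family on other cells. Leukocytes carry the beta 2 integrins, in which ITGB2 pairs with ITGAL, ITGAM, ITGAX or ITGAD and binds ICAMs. VLA-4 (ITGA4 with ITGB1) binds VCAM1 and fibronectin, and VLA-5 (ITGA5 with ITGB1) binds fibronectin, which anchors leukemic promyelocytes and other marrow cells to stroma. Selectins and their ligand PSGL-1, the product of SELPLG, start the rolling of leukocytes on vessel walls, and cadherins join cells of epithelia and other solid tissues.

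Levels are log2 signals relative to the 75th percentile of the array, and changes are resistant minus naive on the same scale. The test took probes whose signal exceeded background clearly in both flasks of the naive or of the resistant line. A probe was called at an adjusted p below 0.05 (limma, Benjamini-Hochberg over all 28221 probes tested) if it also differed 2-fold or more. An exact two-sided permutation test of 2 flasks against 2 cannot go below p = 0.333, and the calls therefore depend on the variance that limma shares across probes. Between 27922 and 28244 probes per array were well above background, among them 46 to 48 of the member probes. None of the member probes was saturated. Of 10 promyelocyte genes on the array 9 were above background on all arrays, among them MPO, CTSG and CD33. Between the lines 3 of the 10 were called: ANPEP lower (log2 change -1.83, adjusted p = 0.0112), and AZU1 (1.17, adjusted p = 0.0472) and ELANE (2.49, adjusted p = 0.0169) higher. ELANE read -5.74 and -6.56 in the naive flasks and was well above background in only 1 of them, so the size of its rise is uncertain. MPO was saturated on all arrays and CTSG in both resistant flasks, so changes in these 2 genes cannot be read. Over the tested member probes the naive flasks differed from each other with an SD of 0.703 and the resistant flasks with an SD of 0.349, against 1.16 to 1.37 for flasks of different lines.

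The probes that carry the main results are shown by sequence, since each value is the signal of 1 such probe. The first to be given are whole 60-base probes, in lower case and 5′ to 3′. The capitals in the first ITGA2B probe mark the bases that code for the conserved motif next to the membrane in integrin alpha chains.
ITGA2B, called lower: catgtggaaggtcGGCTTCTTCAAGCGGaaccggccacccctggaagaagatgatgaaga
ITGA2B, not called: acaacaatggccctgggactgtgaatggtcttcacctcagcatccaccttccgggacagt
ICAM4, called higher: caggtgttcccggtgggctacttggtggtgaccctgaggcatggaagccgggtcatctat
ITGB1, placed on chromosome 10: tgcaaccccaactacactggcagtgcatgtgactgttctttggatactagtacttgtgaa
ITGB1, placed on chromosome 19: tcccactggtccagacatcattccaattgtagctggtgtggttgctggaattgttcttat
For the other called genes the first 30 bases of the probe are given.
ITGAL, first probe: tgtcagggcgtgggacatctagtaggtgct
ITGAL, second probe: tcaccagcctctcttggttccttccttgga
ITGAM: gtctccctttccagatattcaagtcacctc
SELPLG: cccatcccacacgcactgcactgccattgt
ICAM2: ctgtgacaggcagcagagacttgggacatt
ITGA6: atttctgtaaaacaggttataacagtgttt
Positions of the probes in hg19, as the scanner files give them, follow where each gene is described. Of the member probes 11 had no position there, among them the first ITGA2B probe.

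In total 8 member probes of 7 genes were called changed, with 5 probes higher and 3 lower in the resistant line. ITGAL, ITGAM, ICAM4 and SELPLG were higher, and ICAM2, ITGA2B and ITGA6 were lower. The 8 calls are 17.0% of the 47 member probes tested, against 5.27% of all probes tested, with 2.30% of all probes called higher and 2.97% lower. At an unadjusted p below 0.05 there were 19 of the 47 probes. The share of all probes below this p is not given here. Counts of members at this level, here and below, therefore cannot be compared with all probes. The changes of the tested probes had a median of 0.01 (-0.02 over all probes tested), with 24 probes above 0 and 23 below. In 33 of the 47 probes (70.2%) the flasks of the lines did not overlap, against 52.8% of all probes.

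**Figure D1:**
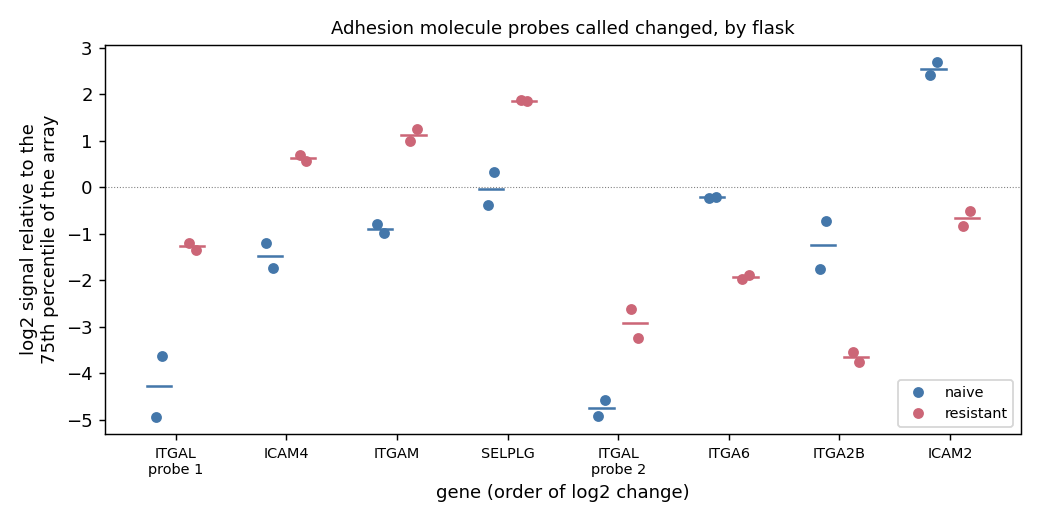
Level of the 8 called probes in every flask (y axis: log2 signal relative to the 75th percentile of the array; x axis: genes in the order of their change). Points are flasks and short lines are means of 2 flasks; the flasks of the lines do not overlap for any of the 8 probes.

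Among the beta 2 integrins the alpha chains ITGAL and ITGAM rose. ITGAL codes for the alpha chain of LFA-1, which binds ICAMs and holds leukocytes to other cells. Its first probe (chr16:30533908-30533967, plus strand) read -4.93 and -3.63 in the naive flasks and -1.20 and -1.34 in the resistant flasks. This is a rise of 3.01 ± 0.46 (SE) on the log2 scale, or 8.07-fold (limma adjusted p = 0.0261). Its second probe (chr16:30533229-30533289) rose by 1.82 ± 0.31 (adjusted p = 0.0372), from -4.92 and -4.57 to -2.61 and -3.24. Both probes of the gene thus moved in the same direction, and their sizes differed by more than 2-fold. The sizes also depended on the processing, as the naive signals were dim (intensities of 35.3 and 72.7 at the first probe). Under the other processings and with a flask left out, the rise ran from 1.54 to 3.66 at the first probe. At the second probe it ran from 0.87 to 2.13.

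ITGAM codes for the alpha chain of Mac-1, a receptor for complement fragments and ICAM1 that appears as myeloid cells mature. Its probe (chr16:31343816-31343875, plus strand) gave -0.79 and -0.98 in the naive flasks and 0.99 and 1.26 in the resistant flasks. The rise of 2.01 ± 0.24 corresponds to 4.02-fold (adjusted p = 0.0114). The flasks of each line lay within 0.3 of each other, far less than the distance between the lines.

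The other chains of this integrin family did not pass the test. ITGB2, the common beta chain (chr21:46305926-46305985), stood at 3.45 and 3.84 in the naive flasks and at 3.55 and 3.84 in the resistant flasks. Its change was 0.05, with a 95% confidence interval of -0.62 to 0.71, so that a change of 2-fold lies outside the interval. ITGAX, the alpha chain of a complement receptor of myeloid and dendritic cells, read -2.76 and -0.76 in the naive flasks against -0.81 and -0.90, which gives 0.91 with an interval of -0.74 to 2.56 (adjusted p = 0.507). The spread between its naive flasks exceeded the difference between the lines. The tested probe of ITGAD was above background in the resistant flasks only, at -6.22 and -5.92. Its change did not pass the test (interval -0.30 to 3.25, adjusted p = 0.339). Its resistant mean lay 1.14-fold above the lowest signal well above background on the naive arrays. A second ITGAD probe showed another pattern, above background in naive flask 2 alone (-4.62), and was not tested. The genes ITGAL, ITGAM, ITGAX and ITGAD are neighbours on chromosome 16, and their probes span 904 kb.

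Markers of monocytes, which carry Mac-1 and LFA-1, also differed between the lines. Of the 8 genes of the list, 6 were above background on all arrays, and CX3CR1 was the only one called (log2 change 2.92, adjusted p = 0.00486). Their summed signal on a linear scale was 3.50 and 4.02 in the naive flasks and 7.81 and 8.94 in the resistant flasks. CD163 and FCGR3A were above background on no array, and CD14 changed by -0.50 (adjusted p = 0.300). The part of this difference in the values of ITGAL and ITGAM was not tested. In RNA of whole cultures, a change in the number of cells of a type and a change in RNA per cell cannot be told apart.

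**Figure D2:**
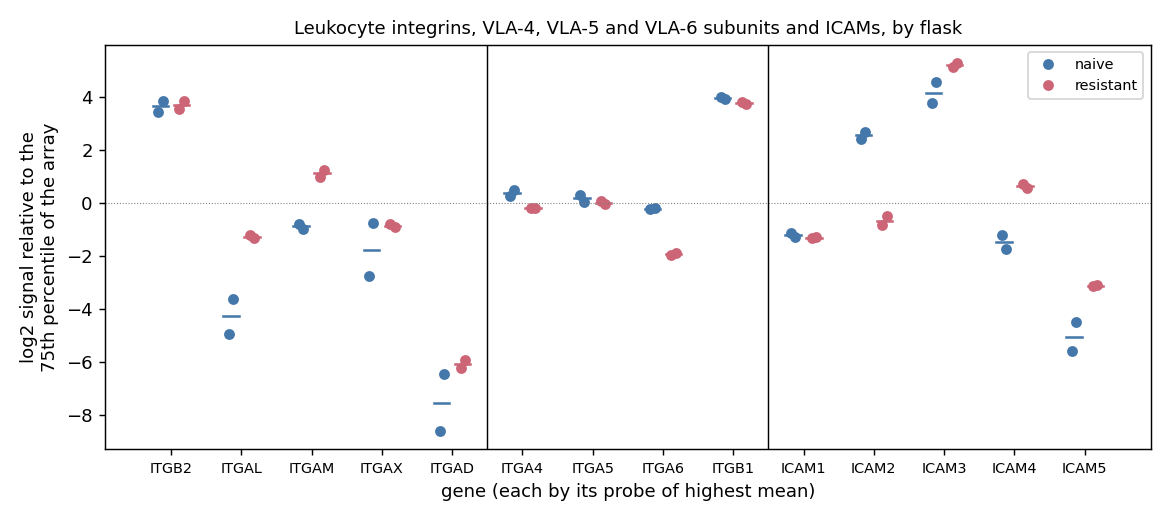
Level in every flask of the beta 2 integrin chains (left), of the chains of VLA-4, VLA-5 and VLA-6 (middle) and of the ICAMs (right), each gene by its probe of highest mean (y axis: log2 signal relative to the 75th percentile). For ITGB1 this probe is placed on chromosome 19, so the source of its signal is uncertain. ITGB2 stays near 3.6 to 3.7 in both lines while ITGAL and ITGAM lie higher in the resistant flasks, and ICAM2 and ICAM4 move in opposite directions.

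Among the beta 1 integrins, ITGA6 fell and the chains of VLA-4 and VLA-5 did not pass the test. ITGA6, the alpha chain of laminin receptors, pairs with ITGB1 as VLA-6 or with ITGB4. Its probe (chr2:173370556-173370615, plus strand) read -0.22 and -0.21 in the naive flasks and -1.98 and -1.89 in the resistant flasks. It fell by 1.72 ± 0.22 on the log2 scale, or 3.29-fold (adjusted p = 0.0141). The flasks of each line agreed within 0.1.

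ITGA4, the alpha chain of VLA-4, lay at 0.25 and 0.48 in the naive flasks and at -0.20 and -0.18 in the resistant flasks. The groups did not overlap, but the change of -0.55, with an interval of -1.12 to 0.02, did not pass the test (adjusted p = 0.277). ITGA5, the alpha chain of VLA-5, read 0.31 and 0.04 in the naive flasks and 0.06 and -0.05 in the resistant flasks, a change of -0.16 with an interval of -0.75 to 0.43. For both chains a 2-fold rise lies outside the interval.

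ITGB1, the beta chain that both share, was read by 3 probes. Their changes were -0.17, -0.23 and -0.35, with adjusted p-values of 0.712, 0.647 and 0.570. Of the 3 probes 1 is placed on chromosome 10, where the gene lies, at chr10:33200507-33200566. The other 2 are placed on chromosome 19, and RefSeq lists a pseudogene of ITGB1, ITGB1P1, on that chromosome, so the source of their signal is uncertain. The probe on chromosome 10 is the one with the change of -0.35 (interval -1.10 to 0.39), and the directions of all 3 agree.

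ITGA2B, the alpha chain of the platelet fibrinogen receptor and a gene of the megakaryocyte lineage, was lower in the resistant line by 1 of its 2 probes. The first probe read -1.76 and -0.74 in the naive flasks and -3.54 and -3.75 in the resistant flasks. It fell by 2.40 ± 0.39, or 5.27-fold (adjusted p = 0.0318). Its second probe (chr17:42453290-42453349, minus strand) read -2.75 and -1.98 against -3.79 and -4.21, a change of -1.63 that did not pass (adjusted p = 0.0708). ITGA2B was the only one of 8 genes with 2 or more tested probes whose probes disagreed in the call. Both probes of ITGB3, which pairs with ITGA2B on platelets, were above background on no array. In the list of other megakaryocyte and platelet genes 0 of 5 tested were called, PPBP and TUBB1 were above background on no array, and the summed linear signal ran from 1.13 to 1.53 in the naive flasks and from 1.74 to 1.80 in the resistant flasks.

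The remaining alpha and beta chains gave no calls. In all, 17 probes of 14 alpha chain genes were tested with 3 called higher and 2 lower, and 7 probes of 5 beta chain genes with none called, 3 of them at an unadjusted p below 0.05. ITGB7, which pairs with ITGA4 or ITGAE in receptors of the gut, came close: it read 0.82 and 0.14 in the naive flasks and -1.13 and -1.04 in the resistant flasks, a change of -1.56 (adjusted p = 0.0551). ITGB4, the other partner of ITGA6, read -4.53 and -3.84 against -2.91 and -2.89, a change of 1.29 (adjusted p = 0.0918). ITGA7, a laminin receptor chain, changed by -0.99 (adjusted p = 0.200), ITGAV, a chain of vitronectin receptors, by 0.58 (adjusted p = 0.251), and ITGAE by 0.31 (adjusted p = 0.669). The flasks of ITGB7, ITGB4, ITGA7 and ITGAV did not overlap between the lines, whereas those of ITGAE did. ITGA11 changed by -0.19 and did not pass the test. ITGB5 was not well above background in the resistant flasks, and its change did not pass the test (interval -1.49 to -0.14, adjusted p = 0.192). Its naive mean lay 1.53-fold above the lowest signal well above background on the resistant arrays.

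Among the immunoglobulin molecules ICAM2 fell and ICAM4 rose. ICAM2 is a ligand of LFA-1 on leukocytes, platelets and vessel walls. Its probe (chr17:62079960-62080019, minus strand) read 2.42 and 2.69 in the naive flasks and -0.82 and -0.51 in the resistant flasks. It fell by 3.22 ± 0.25 on the log2 scale, or 9.32-fold, with an interval of -3.85 to -2.59 (adjusted p = 0.00315), the largest change in size of the 47 tested probes. Of the 6 endothelial marker genes, 4 were above background on all arrays, KDR and TEK on none, and TIE1 was lower in the resistant line (log2 change -2.72, adjusted p = 0.0105). Their summed linear signal was 0.230 and 0.323 in the naive flasks and 0.112 and 0.109 in the resistant flasks. The part of these genes in the change of ICAM2 was not tested.

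ICAM4, the Landsteiner-Wiener blood group antigen of red cells and a ligand of leukocyte integrins, moved the other way. Its probe (chr19:10398286-10398345, plus strand) read -1.21 and -1.73 in the naive flasks and 0.70 and 0.56 in the resistant flasks. The rise was 2.11 ± 0.27, or 4.30-fold (adjusted p = 0.0152). Of the erythroid markers, 3 of 6 were above background on all arrays, HBB on none, and 0 of 3 tested were called. Their summed linear signal lay between 0.118 and 0.126 in the naive flasks and between 0.108 and 0.142 in the resistant flasks.

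The neighbours of ICAM4 on chromosome 19 did not pass the test. ICAM1, ICAM4, ICAM5 and ICAM3 have probes within 48.4 kb. ICAM1, the main ligand of LFA-1 and Mac-1 and a gene that inflammatory signals raise, read -1.14 and -1.30 in the naive flasks and -1.34 and -1.29 in the resistant flasks, a change of -0.09 with an interval of -0.65 to 0.47. ICAM3, a ligand that resting leukocytes carry, read 3.78 and 4.56 against 5.12 and 5.29, a change of 1.03 (adjusted p = 0.178). ICAM5, known from neurons, changed by 1.92 at its first probe, from -5.61 and -4.48 to -3.15 and -3.10 (adjusted p = 0.0714), and its second probe changed in the same direction. For ICAM3 and ICAM5 the resistant flasks lay above both naive flasks. PECAM1, a molecule of leukocytes, platelets and vessel walls, changed by 0.31 (interval -0.35 to 0.98), and VCAM1, the ligand of VLA-4, was above background on no array.

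**Figure D3:**
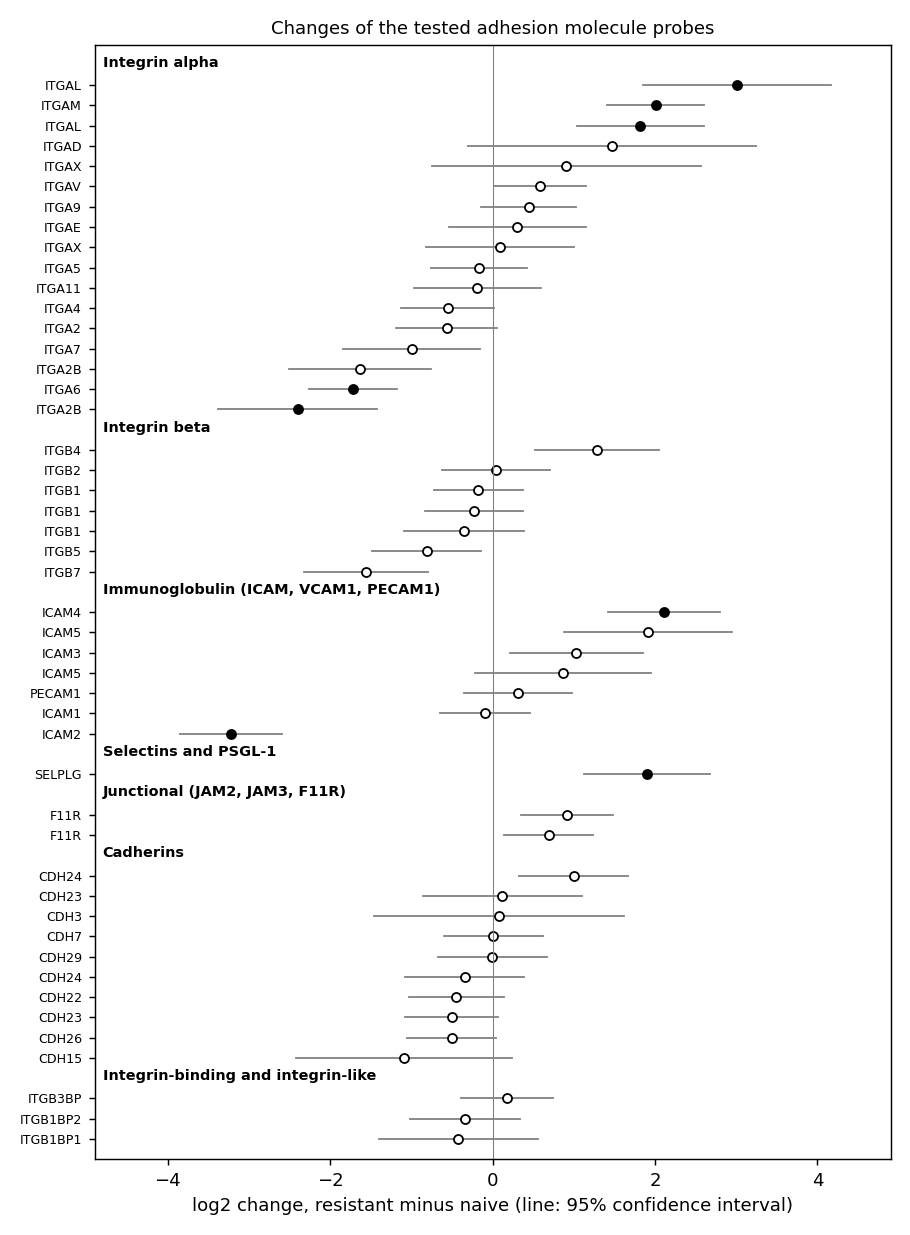
Change of the 47 tested probes (x axis: log2 change, resistant minus naive; one row per probe, genes grouped by family). Circles are limma estimates, filled where called, and lines are 95% confidence intervals. The changes run from -3.22 for ICAM2 to 3.01 for ITGAL, and no cadherin, beta chain or junctional probe was called. For ITGAD, ITGA2, ITGB5 and the lower ICAM5 probe 1 line was not well above background, so their sizes are uncertain.

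SELPLG codes for PSGL-1, the ligand on leukocytes that all selectins bind. Its probe (chr12:109016391-109016450, minus strand) read -0.39 and 0.32 in the naive flasks and 1.88 and 1.85 in the resistant flasks. The rise was 1.90 ± 0.31, or 3.73-fold (adjusted p = 0.0319). SELE, a selectin of endothelium, and SELP, a selectin of platelets and endothelium, were above background on no array. Of the 16 genes listed for the glycosylation of selectin ligands, 14 were tested and 0 were called by limma, with a median change of -0.14. These counts take each gene by its probe of highest mean. A second probe of ST3GAL4, a sialyltransferase, was called lower (log2 change -1.55, adjusted p = 0.0416), while its probe of highest mean changed by -0.40 (adjusted p = 0.554). ST3GAL3, a related enzyme, changed by 1.99 and 1.41 at its 2 probes (adjusted p = 0.0731 and 0.154). FUT7, the fucosyltransferase that makes sialyl Lewis x on PSGL-1, changed by -0.38 (adjusted p = 0.474) and FUT4 by -0.63 (adjusted p = 0.268).

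Junctional molecules and cadherins gave no calls. F11R codes for junctional adhesion molecule A, which seals epithelial and endothelial contacts and binds LFA-1. Its first probe read 2.13 and 2.32 in the naive flasks and 3.10 and 3.18 in the resistant flasks, a change of 0.92 (interval 0.35 to 1.48, adjusted p = 0.103), and its second probe changed by 0.69. JAM2 and JAM3 were above background on no array. Of 37 cadherin probes for 24 genes, 24 were above background on no array, among them those of CDH1, CDH2 and CDH5, the cadherins of epithelium, nerve and endothelium. The 10 tested probes, of 8 genes, changed by -1.09 to 1.00 with a median of -0.17, and 1 of them had an unadjusted p below 0.05.

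Among the tested cadherins, CDH22 read 1.72 and 1.77 in the naive flasks and 1.43 and 1.17 in the resistant flasks, a change of -0.45 (adjusted p = 0.372). A second CDH22 probe, from the same transcript, was above background on no array. CDH24 had probes with opposite signs, -0.34 (adjusted p = 0.574) and 1.00 (adjusted p = 0.125), of which neither passed. CDH3 and CDH7 changed by 0.08 and 0.01. The gene named CDH29 on the array is CDHR4 in RefSeq.

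**Figure D4:**
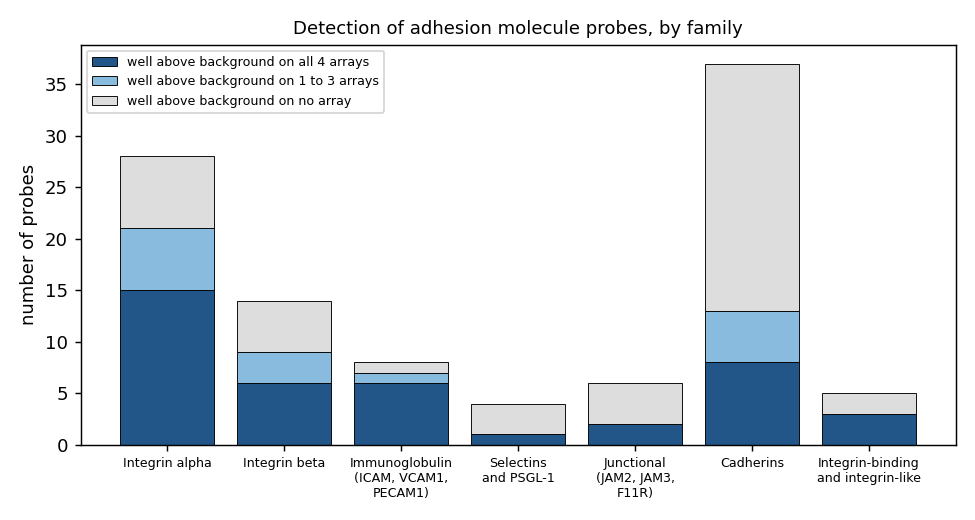
Number of probes in each family that exceeded background clearly on all 4 arrays, on 1 to 3 arrays or on no array (stacked bars, y axis from 0). Of 102 probes 41 were above background on all arrays and 46 on none, and 24 of the 46 are cadherin probes.

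Detection set the limits of this account. Of the 69 genes, 38 had a tested probe and 31 had none, and 26 genes were above background on no array by any probe. A further 9 probes were above background on at least 1 array but never on both of a line, so they were not tested. For a probe below background on all arrays the data show a low signal and no more. Of the integrin-named genes that are no integrin chains, ITGB1BP1, a protein that binds the tail of ITGB1, changed by -0.42, ITGB1BP2 by -0.34 and ITGB3BP by 0.18, none of them called. ITGB1BP3, now NMRK2, and ITGBL1 were above background on no array.

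Genes that work with adhesion receptors, here called partner genes, were read from lists. The lists held integrin activators, focal adhesion linkers and kinases, catenins and cadherin partners, enzymes of selectin ligand glycosylation and other leukocyte adhesion molecules. Of 97 listed genes on the array 83 were tested, and 3 were called: TLN2 and TSPAN32 higher and CD9 lower. TLN2 is from the list of integrin activators, and TSPAN32 and CD9 are from that of other leukocyte adhesion molecules. The share called over all genes, each by its probe of highest mean, was 5.47%, with 2.49% higher and 2.98% lower. Over the 83 genes the median change was -0.02. TLN2 codes for a talin, the protein that switches integrins on from inside the cell, and read -4.61 and -5.00 in the naive flasks and -2.37 and -2.39 in the resistant flasks, a rise of 2.43 ± 0.25 (adjusted p = 0.00657). The other probe of TLN2 rose by 2.52 (adjusted p = 0.0144). TLN1, the talin of most cells, changed by -0.24 (adjusted p = 0.678), and FERMT3, the kindlin of blood cells, by -0.74 (adjusted p = 0.176).

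TSPAN32, a tetraspanin of blood cells that associates with integrins, rose by 1.50 ± 0.24 (adjusted p = 0.0298). CD9, a tetraspanin of platelets and leukocytes that also associates with integrins, fell by 1.70 ± 0.26 (adjusted p = 0.0277). Without resistant flask 1 or 2 none of the 3 partner genes was called (TLN2, adjusted p = 0.0539 and 0.0532; TSPAN32, 0.290 and 0.243; CD9, 0.187 and 0.228), and without naive flask 1 or 2 there were 14 calls. Of 25 tested focal adhesion linkers and kinases and of 10 tested catenins and cadherin partners, 0 were called by limma, with medians of 0.15 and 0.09. A further probe of NCAM1, a neural and lymphoid adhesion molecule, was called lower (adjusted p = 0.00943). It read -4.93 and -3.57 in the naive flasks and was not well above background in the resistant flasks. Its naive mean lay 4.66-fold above the lowest signal well above background on the resistant arrays. The NCAM1 probe of highest mean did not pass the test (adjusted p = 0.0729).

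Upstream sequence was at hand for 4 of the 7 called genes, 2 that rose and 2 that fell, in RefSeq of GRCh38.p14. Each is the 250 bases before the start on the gene's own strand, in lower case, shown so that the motifs searched can be seen in them. Both strands were searched for 3 short motifs, whose matches stand in capitals. GAGGAA is the core that factors such as PU.1 bind. GATAA is the core for GATA factors. GGGCGG is the core for SP1. On the other strand these read TTCCTC for the first, TTATC for the second and CCGCCC for the third motif.
ITGAM, chr16:31259725-31259974, plus strand: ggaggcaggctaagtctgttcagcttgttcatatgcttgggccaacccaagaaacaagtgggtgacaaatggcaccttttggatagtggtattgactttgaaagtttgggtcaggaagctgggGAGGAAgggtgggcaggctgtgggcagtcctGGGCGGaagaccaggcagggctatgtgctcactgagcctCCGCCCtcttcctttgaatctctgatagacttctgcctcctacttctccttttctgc
ICAM4, chr19:10286705-10286954, plus strand: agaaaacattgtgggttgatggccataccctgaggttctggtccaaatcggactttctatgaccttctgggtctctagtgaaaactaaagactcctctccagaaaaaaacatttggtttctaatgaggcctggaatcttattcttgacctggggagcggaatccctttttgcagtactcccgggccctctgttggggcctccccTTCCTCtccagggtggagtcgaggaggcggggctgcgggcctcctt
ITGA2B, chr17:44389650-44389899, minus strand: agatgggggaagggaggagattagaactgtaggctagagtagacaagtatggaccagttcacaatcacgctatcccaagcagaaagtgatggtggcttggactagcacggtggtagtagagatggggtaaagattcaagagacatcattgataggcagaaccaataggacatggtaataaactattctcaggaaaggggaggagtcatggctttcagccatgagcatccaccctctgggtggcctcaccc
ITGA6, chr2:172427086-172427335, plus strand, the more upstream of 2 starts: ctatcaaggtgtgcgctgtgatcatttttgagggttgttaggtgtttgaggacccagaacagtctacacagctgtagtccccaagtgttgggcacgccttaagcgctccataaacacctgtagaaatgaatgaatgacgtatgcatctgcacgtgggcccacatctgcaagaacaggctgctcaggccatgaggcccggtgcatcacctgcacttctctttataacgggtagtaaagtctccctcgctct
GAGGAA was found once upstream of ITGAM and once upstream of ICAM4, both of which rose, and not upstream of ITGA2B or ITGA6, which fell. The motif is in 23.6% of all 35116 upstream windows. GGGCGG matched at 2 places upstream of ITGAM and in 42.6% of all windows, and GATAA matched in none of the 4 and in 20.4% of all windows. The matches describe these letters only.

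Most of the calls were lost without 1 of the resistant flasks. Without resistant flask 1 or without resistant flask 2, ICAM2 was the only member called, with adjusted p = 0.0207 and 0.0145. In those fits ITGAL had adjusted p-values of 0.0789 and 0.0662, ITGAM of 0.0767 and 0.127, ICAM4 of 0.115 and 0.0918, SELPLG of 0.178 and 0.178, ITGA2B of 0.0980 and 0.136, and ITGA6 of 0.175 and 0.155. By the probe of highest mean of each gene, their log2 changes stayed between 1.87 and 3.08 for the genes that were higher. For those that were lower they stayed between -2.50 and -1.67. The second ITGAL probe is not covered by these ranges. Without naive flask 1 the member probes called numbered 12, and without naive flask 2 they numbered 19, with all 8 reported calls among them in both. With normexp background correction 0 member probes were called (7 at an unadjusted p below 0.05), with the methods' t-test adjusted by Benjamini-Hochberg likewise 0 (15 at an unadjusted p below 0.05), and without a filter on dim probes 4, namely ICAM2, ICAM4, ITGAM and ITGA6.

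**Figure D5:**
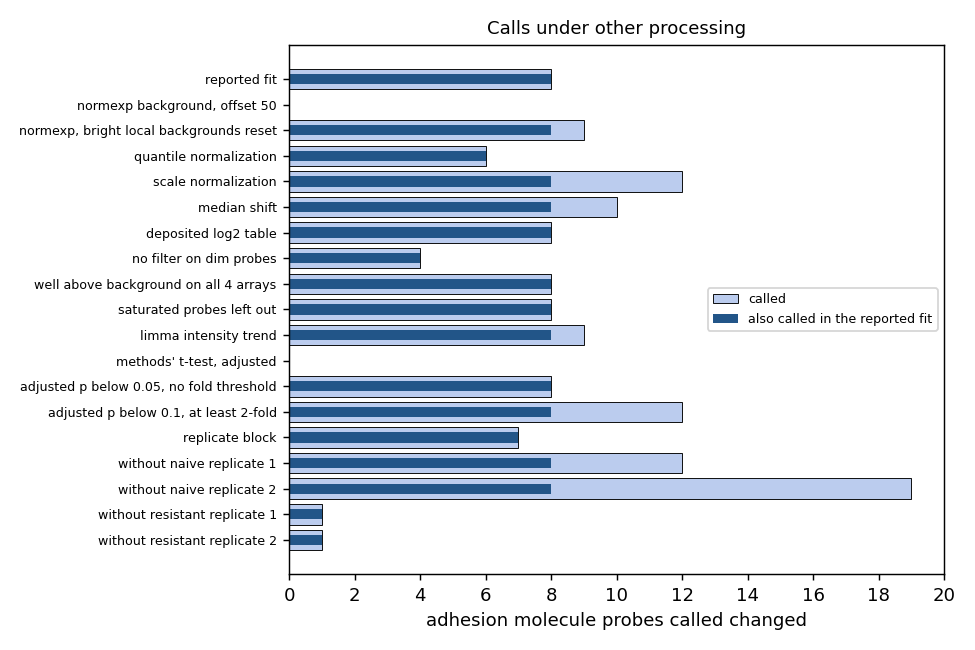
Number of member probes called in the reported fit and under each alternative (light bars), and how many of the 8 reported calls are among them (dark bars). The number runs from 0 with normexp background or the methods' t-test to 19 without naive flask 2.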

How the data were processed

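RNA of 2 naive and 2 resistant flasks was read on 4 1-colour Agilent arrays of 1 slide. The authors used Feature Extraction 10.5.1.1 and deposited its processed signal, an intensity after background subtraction, and a log2 table, scaled by the 75th percentile. Positions of probes refer to hg19, the build in the file headers.

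From the deposited intensities, log2 values were taken, control spots and spots marked as outliers left out, spots of a probe averaged, and each array's 75th percentile was subtracted. Arrays have no read depth, and their number limits the precision. Lines were compared in R 4.3.3 with lmFit and eBayes of limma 3.58.1, over 28221 probes. Where a line was not well above background, the mean of the other line was set against the lowest signal well above background. Such a fold takes no account of the spread between flasks. A gene stands by its probe of highest mean. Named were the members called, the chains of VLA-4, VLA-5 and the beta 2 integrins, and up to 4 further members per family. Members and lists were chosen with earlier results of these data known. The fit was tested on simulated data. RefSeq symbols were found for 95 of the 102 member probes. The values of 1 member are not reported here.

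The alternatives were other background corrections, normalizations, filters, thresholds and tests, the replicate number as a block and each flask left out. With 1 slide, a slide block was not possible.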

Additional observations from a re-analysis of the deposited data

How the results depend on the processing

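The member probes called numbered 8 (5 higher, 3 lower), and the listed partner genes 3. After normexp background with an offset of 50 these were 0, 0, 0 and 0 (7 member probes and 4 partner genes at an unadjusted p below 0.05), and with the methods' t-test adjusted by Benjamini-Hochberg again 0, 0, 0 and 0 (15 and 9 at an unadjusted p below 0.05). Over all probes both alternatives called 0. With local backgrounds over 100 reset before normexp, 9 member probes and 5 partner genes were called. Without a filter on dim probes the counts were 4 member probes (2 higher) and 1 partner gene. After scale normalization 5 member probes were lower and 7 partner genes called, and at an adjusted p below 0.1 these were 5 and 7. With each flask left out in turn, member probes called ran from 1 to 19, higher from 0 to 13, lower from 1 to 6, and partner genes from 0 to 14. Quantile normalization gave 6 calls, without SELPLG and ITGA2B, and a shift to the median 10. The median of the member changes lay between -0.12 and 0.23 over all alternatives. The median over all probes shifted by 0.15 after normexp and by 0.10 after scale normalization.

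Values that changed sign, none of a called gene, were as follows. After normexp ITGB2 was -0.062, ICAM1 0.0070, ITGB1BP2 0.0071, ITGA11 0.13 and ITGB5 0.21. After scale normalization ITGB1, by its probe of highest mean on chromosome 19, was 0.0095, and over the mean of its probes CDH24 was 0.33. With a flask left out, ITGB2 ranged from -0.15 to 0.24, ITGB1BP1 from -0.95 to 0.098, ITGAX from -0.092 to 1.91, CDH3 from -0.76 to 0.92, CDH7 from -0.16 to 0.18, ITGAE from -0.10 to 0.71 and ITGA11 from -0.55 to 0.17. The causes were not tested.

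As a replicate block, the number of the flask gave 7 calls, all among the 8, and the second ITGAL probe was lost. The labels give no shared batch or day behind the numbers, there are only 2 pairs, and deviations of same-numbered flasks correlated at 0.119 over all probes and 0.163 over the member probes. TSPAN32 was lost under the block as well (adjusted p = 0.0531). No fit with a slide block was run, as there was 1 slide.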
